A study of Mus musculus with 12 samples.

Results

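Hypothyroid mice with an altered nuclear receptor corepressor, NCoR, were compared with hypothyroid controls by the level of liver mRNA. The comparison takes the mutants of replicates 5, 6 and 7 and the controls of replicates 17, 18 and 20, which are 6 of the 12 mice of the series. It covers every transcript cluster of the array that the platform annotation gives exactly 1 gene symbol, which is 21789 of 35557 clusters and 19938 genes. A transcript cluster is the array's set of probes for a single locus, and all levels here are log2 signals, so that a difference of 1 is a doubling.

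Per the design text the mutants carry L-NCoR∆ID, a form of NCoR changed in liver, and the series title calls these livers NCoR deficient. The other 6 mice were euthyroid, with 3 controls (replicates 13, 14 and 15) and 3 mutants (replicates 2, 3 and 4). The labels name the groups by genotype and thyroid state alone. The controls' genotype, the promoter of any Cre transgene, the strain, sex and age, and the way hypothyroidism was produced go unstated in the labels and the design text. The labels list 12 samples with an array each, taken here as 12 mice, and do not say that the replicates of a group were separate animals, so p-values measure only the spread between these samples, which may be technical. The level of the altered gene itself, Ncor1, was not analysed here.

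Thyroid hormone acts in the liver through nuclear receptors, chiefly the beta receptor, that stay on DNA with or without hormone. Without hormone these receptors bind corepressors such as NCoR, which bring in the histone deacetylase HDAC3 and hold target genes low, and hormone exchanges them for coactivators. NCoR also serves other nuclear receptors of the liver, among them the oxysterol receptors (LXR), whose targets include genes of fatty acid synthesis. The hypothyroid state is therefore the setting in which unliganded receptor and corepressor are expected to be together, and the comparison asks which liver mRNAs differ there when NCoR is altered.

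The 12 arrays had medians between 4.16 and 4.32, and the first principal component held 36.8% of the variance. Mutant hypothyroid replicate 7 (-40.15) and control euthyroid replicate 14 (54.76) lay at its ends. Hepatocyte markers were high on all 6 hypothyroid arrays, with a mean over 13 markers of 11.72 to 11.75 in controls and 11.65 to 11.72 in mutants. Of 12 lymphocyte and granulocyte markers, 9 were below the array median on every one of these 6 arrays, as were 4 of 8 adipocyte and pancreas markers. The SD of log2 values over an array was 2.288 to 2.296 in the hypothyroid controls and 2.316 to 2.35 in the hypothyroid mutants, so the range of signal moved with genotype here without overlap. Fewer cells of a type and less RNA per cell cannot be told apart in whole liver RNA.

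In hypothyroid liver, genes of fatty acid synthesis were higher in mutants, as were some genes that were lower in hypothyroid than in euthyroid controls. The orphan receptor gene Nr4a1 and the keratin gene Krt23 were much lower. With limma, 57 clusters of 55 genes differed at an adjusted p under 0.05, which is 0.262% of those tested. Of these, 47 clusters (45 genes, 0.216% of clusters tested) were higher in mutants and 10 (0.0459%) were lower. The difference was 2-fold or more for 31 of the higher and 4 of the lower clusters. Over all 21789 clusters the median difference was -0.0201 and 46.2% lay above 0. In 22.5% of all clusters the 3 mutants did not overlap the 3 controls, with all mutants above in 12.4% and all below in 10.2%.

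The count of calls rested on single arrays to a large degree. It was 21 without control hypothyroid replicate 17, 25 without mutant hypothyroid replicate 7, 29 without mutant replicate 6, 34 without control hypothyroid replicate 20, 119 without control euthyroid replicate 14 and 133 without control euthyroid replicate 13, and 18 of the 57 clusters were called whichever of the 12 arrays was left out. With array SD as a covariate 9 clusters were called, 5 higher and 4 lower, 7 of them among the 57: Scd2, Ces2a, Csrp3, Pls1, 1 of 2 clusters of Sytl5, Krt23 and Zfp395. All 57 kept their direction under that covariate, with a median size of 1.0 against 1.12, and the part of signal range in the other calls was not tested beyond this. Without the 2 arrays at the ends of the first component, 52 clusters were called, 33 of them shared.

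**Figure D1:**
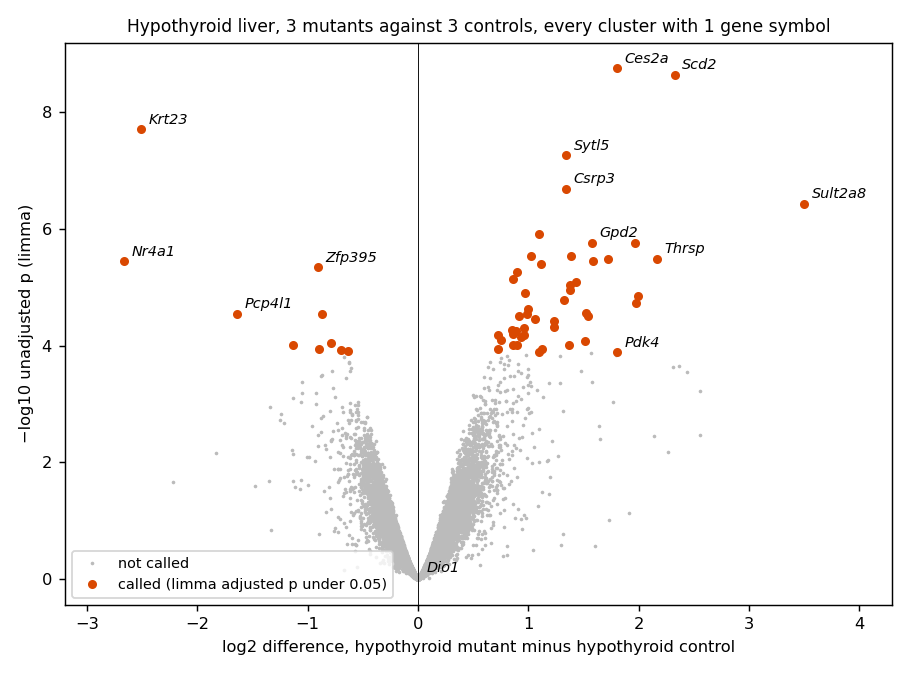
Log2 difference between hypothyroid mutants and hypothyroid controls (x axis, 3 mice each) against −log10 of the unadjusted limma p (y axis) for 21789 clusters; orange points are the 57 called ones. The called rises reach 3.50 (Sult2a8), the called falls reach -2.66 (Nr4a1), and Dio1 lies near 0.

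Enzymes of fatty acid synthesis were the list with the most called rises, at 5 of 27 genes, while the hormone-induced list had 4 of 15. Over all clusters 0.216% were called higher. Thrsp and Me1 count in both lists, and the lists were chosen with earlier results of these data known. Scd2, a stearoyl-CoA desaturase that makes monounsaturated fatty acids, read 4.96, 5.50 and 5.13 in hypothyroid controls and 7.47, 7.69 and 7.41 in hypothyroid mutants. The lowest mutant stood far above the highest control, and Scd2 was 5.01-fold higher (difference 2.33 ± 0.183 SE, adjusted p = 2.49e-05). Thrsp (Spot 14), a nuclear protein that promotes lipogenesis and a classic hormone-induced liver gene, read 7.60, 8.30 and 6.72 in controls and 9.91, 9.33 and 9.87 in mutants. Controls varied more than mutants without reaching them, and the difference was 2.16 ± 0.3 (4.48-fold, adjusted p = 0.00521). The elongase Elovl6, which carries palmitate to stearate, read 8.17, 9.57 and 8.59 in controls and 10.59, 10.57 and 11.10 in mutants. Control replicate 18 was the nearest to the mutants, and the rise was 1.98 ± 0.32 (3.94-fold, adjusted p = 0.0154).

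Me1, the cytosolic malic enzyme that supplies NADPH for fatty acid synthesis, was measured by 2 clusters. The first read 8.83, 9.46 and 8.88 in controls against 10.69, 10.47 and 11.19 in mutants, a rise of 1.73 ± 0.239, and the second rose by 1.58 ± 0.222 (adjusted p = 0.00521 for each). Neither overlapped between the groups. Fatty acid synthase, Fasn, read 9.51, 9.92 and 8.86 in controls and 10.74, 10.59 and 11.11 in mutants, and rose by 1.38 ± 0.21 (adjusted p = 0.0095). Acetyl-CoA carboxylase, Acaca, the committed step of the pathway, rose by 1.37 ± 0.259 in 1 cluster (adjusted p = 0.043), while its second cluster differed by 1.29 ± 0.255 (adjusted p = 0.0533). The calls of Scd2, Thrsp and both Me1 clusters were kept in all 12 single-array omissions; Fasn was lost without mutant hypothyroid replicate 7 (adjusted p = 0.0567), Elovl6 without that array or without control hypothyroid replicate 17 or 20 (adjusted p up to 0.0999), and Acaca in 8 of the 12 omissions (up to 0.207). With array SD as a covariate Scd2 alone of these stayed called (2.23, adjusted p = 0.00177), with Thrsp at 1.96 (adjusted p = 0.15), Elovl6 at 1.65 (0.29) and Fasn at 1.38 (0.15).

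Fatty acid and triglyceride synthesis had 27 measured genes, of which 5 rose (Scd2, Thrsp, Elovl6, Me1 and Fasn) and 0 fell, with Acaca represented in this list by its uncalled cluster. Their median difference was 0.58 against -0.02 over all clusters, 23 of 27 lay above 0, and in 13 all mutants were above all controls, which holds for 12.4% of all clusters. In euthyroid mice limma called 7 of the 27 (0.129% of all clusters), 25 lay above 0 and the median was 0.48. All euthyroid mutants were above all controls in 16, which holds for 5.05% of all clusters. The list was thus at least as marked there by these counts. In the hypothyroid comparison it held 3 to 8 calls over the single-array omissions and 1 with array SD as a covariate. In the list of NADPH and glycolysis genes, 3 of 12 rose, namely Me1, Gpd2 and Pgd. Pgd, the 6-phosphogluconate dehydrogenase of the pentose phosphate pathway, read 7.83, 7.82 and 8.18 in controls and 8.84, 8.84 and 8.83 in mutants (0.89 ± 0.161, adjusted p = 0.032). No regulator of lipogenesis among 13 was called; Mlxipl, which encodes the carbohydrate response factor ChREBP, differed by 0.93 ± 0.198 (adjusted p = 0.0764), and Insig2, which restrains SREBP processing, by 0.62 ± 0.236 (adjusted p = 0.383).

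Cholesterol genes leaned the same way with fewer calls. Of 19 measured genes of cholesterol synthesis and uptake, only Sqle rose in limma, 17 differed by more than 0, and the median was 0.41. Sqle, squalene epoxidase, read 7.23, 7.96 and 7.32 in hypothyroid controls and 8.71, 8.55 and 9.22 in hypothyroid mutants, without overlap (1.32 ± 0.212, adjusted p = 0.0144, lost without control hypothyroid replicate 17 or 20 or mutant hypothyroid replicate 7, adjusted p up to 0.102). Of 12 LXR targets none was called in limma and the median was 0.39: the phospholipid transfer protein gene Pltp differed by 1.17 ± 0.392 (adjusted p = 0.319) and the sterol exporter gene Abcg5 by 0.86 ± 0.211 (adjusted p = 0.147). In the euthyroid mice the 2 lists had medians of 0.80 and 0.32.

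**Figure D2:**
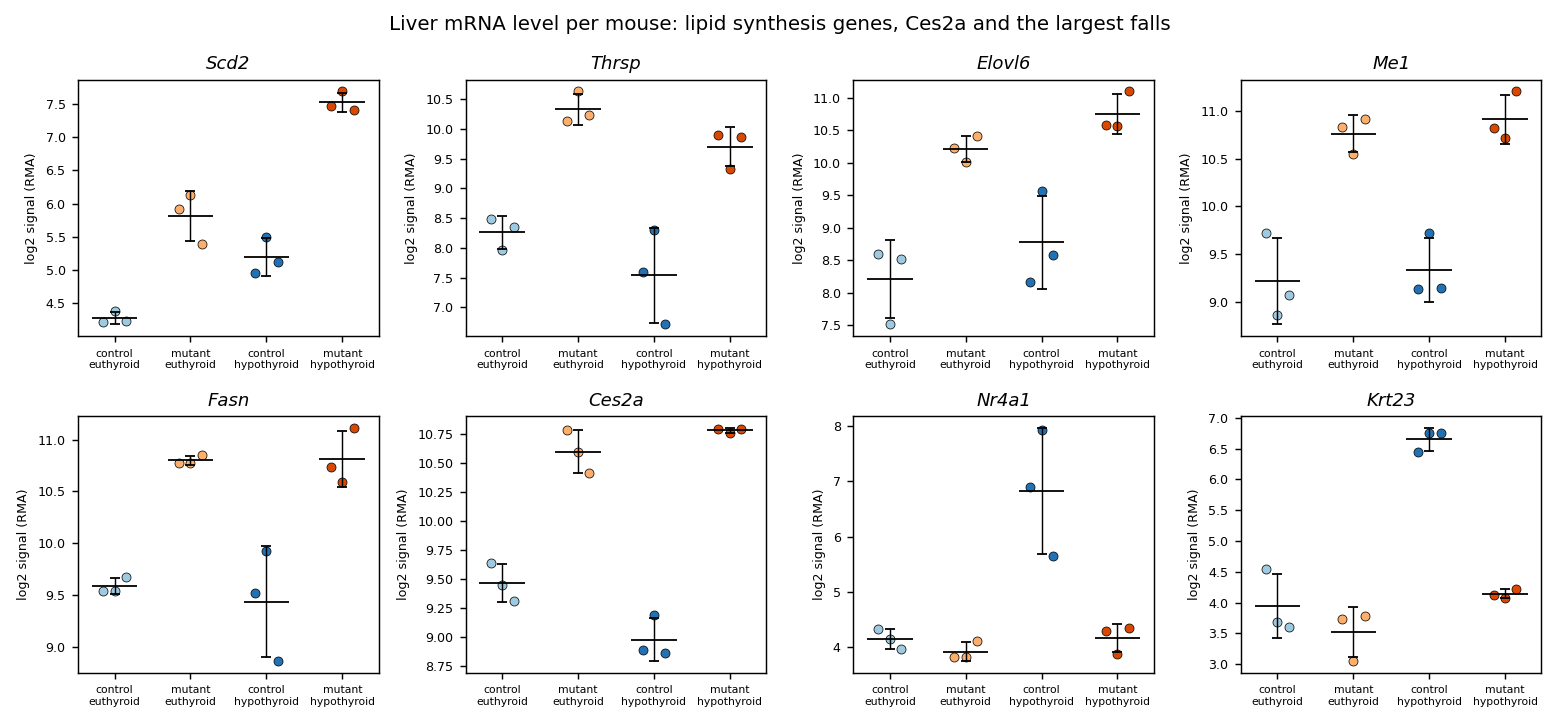
RMA log2 signal (y axis) of 8 genes in each of the 12 mice, grouped by genotype and thyroid state (x axis); points are mice, the horizontal line is the mean of 3 and the bar its SD. In hypothyroid mice the mutants lie above the controls for Scd2, Thrsp, Elovl6, Me1, Fasn and Ces2a, and below them for Nr4a1 and Krt23.

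The falls were led by Nr4a1 and Krt23. Nr4a1 (Nur77), an orphan nuclear receptor gene of the immediate early class, read 6.90, 7.93 and 5.66 in hypothyroid controls and 4.29, 3.87 and 4.34 in hypothyroid mutants. The controls spanned more than 2 log2 units and still lay above every mutant, and Nr4a1 was 6.32-fold lower in mutants (difference -2.66 ± 0.372, adjusted p = 0.00521). In euthyroid mice it read 4.32, 4.15 and 3.97 in controls and 3.83, 3.81 and 4.11 in mutants, so the hypothyroid controls were the only high group. Krt23, an acidic keratin, read 6.44, 6.75 and 6.76 in hypothyroid controls and 4.13, 4.08 and 4.22 in hypothyroid mutants. Its groups were tight and far apart, and it was 5.68-fold lower (difference -2.51 ± 0.232, adjusted p = 0.000143). Euthyroid levels of Krt23 were 4.54, 3.68 and 3.60 in controls and 3.74, 3.05 and 3.78 in mutants.

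Hypothyroid controls also stood above euthyroid controls for both genes, by 2.68 (adjusted p = 0.00142) for Nr4a1 and 2.71 (adjusted p = 1.89e-05) for Krt23, in a comparison that uses the same 3 hypothyroid controls and in which limma called 1.11% of clusters. Hypothyroid mutants differed from euthyroid controls by 0.02 (adjusted p = 0.976) and 0.20 (adjusted p = 0.584). Outside the hypothyroid controls both genes read near or below the array medians, which ran from 4.16 to 4.32. At so low a signal the size of the falls and the likeness to euthyroid controls are less certain. Both falls were kept in all 12 single-array omissions. Nr4a1 was not called with array SD as a covariate (-2.52, adjusted p = 0.137), while Krt23 was (-2.56, adjusted p = 0.0051).

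The other called falls were smaller. Pcp4l1, a gene of the Purkinje cell protein family, read 6.51, 6.74 and 6.82 in controls and 5.58, 4.93 and 4.66 in mutants (-1.64 ± 0.276, adjusted p = 0.0205). Zfp395, a zinc finger protein gene, read 7.54, 7.63 and 7.60 in controls and 6.49, 6.89 and 6.68 in mutants (-0.91 ± 0.13, adjusted p = 0.00585). Neither pair of groups overlapped, and Zfp395 kept its call in every single-array omission. The long non-coding RNA gene Rian of the imprinted Dlk1-Meg3 region fell by 0.87 on the log2 scale (adjusted p = 0.0205), at low signal, from 3.04, 2.85 and 2.66 to 2.16, 1.88 and 1.91. Lce1c (-1.13), the hydrolase gene Abhd2 (-0.89), the hydroxylysine kinase gene Hykk (-0.79), the secreted kinase gene Pkdcc (-0.70) and the growth arrest gene Gas1 (-0.63) made up the rest, with limma adjusted p between 0.043 and 0.0491. Of the falls other than Nr4a1, Krt23 and Zfp395, each lost its call in at least 4 of 12 omissions: Pcp4l1 without any hypothyroid array except mutant replicate 5 (adjusted p up to 0.115), Rian without control hypothyroid replicate 17 or 18 or mutant hypothyroid replicate 6 or 7 (up to 0.132), and the other five in 8 to 10 omissions (up to 0.239).

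Nr4a1 was the only called gene among 22 immediate early genes and among 28 nuclear receptor genes. Of the immediate early genes, 3 lay above 0, and the median was -0.29. The list median of nuclear receptor genes was -0.16. Krt23 was the only called gene among 11 keratin and bile duct genes, whose median was 0.04, with 8 above 0 and 3 below. The mean of these 11 was 5.162 to 5.294 on the hypothyroid control arrays and 5.022 to 5.134 on the mutant arrays. That mean includes Krt23 with its large fall, so it does not show a fall of the list as a whole. The keratin genes Krt20 and Krt222 and the bile duct marker Epcam were below the array median on all 6 arrays.

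The promoters of 6 called genes are shown: 4 called rises of the hormone-induced and fatty acid synthesis lists, with Scd2 not among them, and the 2 largest falls. They are RefSeq sequences on build GRCm38.p6, from 250 bases before to 50 after the annotated start, written 5′ to 3′ on the gene's strand, and no measurement of binding was made in them. The windows belong to Thrsp (chr7:97417501-97417800, minus strand), Elovl6 (chr3:129532136-129532435, plus strand), Pdk4 (chr6:5496229-5496528, minus strand), Me1 (chr9:86695865-86696164, minus strand), Nr4a1 (chr15:101266596-101266895, plus strand) and Krt23 (chr11:99493071-99493370, minus strand). Me1 has 2 windows in the table, of which the first is given. Capitals mark matches to the motifs searched on both strands.
Thrsp: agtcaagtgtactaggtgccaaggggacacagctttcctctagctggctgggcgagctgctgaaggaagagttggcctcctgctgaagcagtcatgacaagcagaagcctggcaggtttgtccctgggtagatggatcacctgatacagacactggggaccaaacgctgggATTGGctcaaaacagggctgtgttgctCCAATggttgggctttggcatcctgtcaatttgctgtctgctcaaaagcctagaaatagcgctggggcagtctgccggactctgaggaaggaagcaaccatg
Elovl6: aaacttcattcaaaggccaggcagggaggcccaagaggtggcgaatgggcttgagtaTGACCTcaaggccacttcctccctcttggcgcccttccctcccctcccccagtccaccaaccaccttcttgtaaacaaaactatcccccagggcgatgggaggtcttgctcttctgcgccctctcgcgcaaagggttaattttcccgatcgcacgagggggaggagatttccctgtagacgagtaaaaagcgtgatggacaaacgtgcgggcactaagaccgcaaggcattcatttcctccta
Pdk4: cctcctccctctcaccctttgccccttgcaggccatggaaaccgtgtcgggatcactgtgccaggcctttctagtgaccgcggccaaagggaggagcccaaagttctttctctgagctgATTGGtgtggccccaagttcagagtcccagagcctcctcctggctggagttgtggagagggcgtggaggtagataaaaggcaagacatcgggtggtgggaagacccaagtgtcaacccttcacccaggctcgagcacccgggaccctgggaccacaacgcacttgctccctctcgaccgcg
Me1: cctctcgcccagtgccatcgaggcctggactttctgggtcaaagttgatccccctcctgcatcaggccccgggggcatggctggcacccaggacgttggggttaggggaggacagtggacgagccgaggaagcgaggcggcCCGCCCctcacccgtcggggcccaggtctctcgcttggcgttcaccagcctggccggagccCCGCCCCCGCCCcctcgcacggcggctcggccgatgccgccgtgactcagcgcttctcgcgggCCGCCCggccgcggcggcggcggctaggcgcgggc
Nr4a1: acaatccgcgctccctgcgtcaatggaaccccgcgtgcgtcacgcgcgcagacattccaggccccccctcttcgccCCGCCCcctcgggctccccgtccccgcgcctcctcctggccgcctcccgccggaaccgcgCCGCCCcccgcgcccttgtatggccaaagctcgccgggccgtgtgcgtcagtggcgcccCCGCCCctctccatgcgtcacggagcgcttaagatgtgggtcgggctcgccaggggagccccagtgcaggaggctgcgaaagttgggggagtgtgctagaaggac
Krt23: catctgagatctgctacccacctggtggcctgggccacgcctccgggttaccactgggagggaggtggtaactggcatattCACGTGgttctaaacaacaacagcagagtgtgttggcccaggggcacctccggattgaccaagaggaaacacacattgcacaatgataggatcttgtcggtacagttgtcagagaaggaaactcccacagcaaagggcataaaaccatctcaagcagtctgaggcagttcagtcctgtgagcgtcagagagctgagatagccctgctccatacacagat

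The nuclear receptor half-site AGGTCA occurred in the Elovl6 window alone, at -193 on the reverse strand, and in 16.3% of all 32851 RefSeq windows of this length. Direct repeats of that half-site with 4 bases between (DR4, the arrangement usual for thyroid hormone receptor and LXR) or with 1 base between (DR1) were in none of the 6 windows and in 0.0152% and 0.0396% of all windows; any such repeat also counts as a half-site. The CCAAT box (CCAAT) was found in Thrsp at -79 and -52 and in Pdk4 at -131, and in 37.4% of all windows. GC boxes (GGGCGG) numbered 4 in Me1 and 3 in Nr4a1 and were present in 35.7% of windows, and the E-box CACGTG lay at -169 in Krt23 and in 7.15% of windows. TATAAA (13.6%) and TGACGTCA (1.79%) matched none of the 6. A match is a string of letters and no evidence of use, and the absence of a match speaks only of these 300 bases. A window was found for 48 of the 55 called genes, and that of Scd2 was not used here.

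A further set of rises concerned genes that were low in hypothyroid controls. Of the 47 called rises, limma called 14 lower in hypothyroid than in euthyroid controls. It called 3 higher there, namely Scd2 and both clusters of Sytl5, and called 1.11% of all clusters in that comparison. These counts and the next values use the hypothyroid controls on both sides, so the 2 differences share arrays. The genes shown were picked from the rises with that pattern in view. Sult2a8, a hepatic sulfotransferase of bile acids, read 9.65, 8.83 and 9.12 in euthyroid controls, 3.83, 5.81 and 4.0 in hypothyroid controls and 7.46, 8.13 and 8.56 in hypothyroid mutants. All hypothyroid mutants lay between the other 2 groups, and the mutants were 11.3-fold above hypothyroid controls (3.50 ± 0.407, adjusted p = 0.00135), which in turn differed from euthyroid controls by -4.65 (adjusted p = 2.02e-05). Sult2a genes are close copies, and shared probes leave the member uncertain. Gpd2, the mitochondrial glycerol-3-phosphate dehydrogenase and a long known hormone-induced enzyme, read 7.26, 6.75 and 7.16 in euthyroid controls, 4.91, 5.79 and 5.61 in hypothyroid controls and 7.31, 6.88 and 6.86 in hypothyroid mutants. Hypothyroid mutants overlapped euthyroid controls and stood above hypothyroid controls by 1.58 ± 0.208 (adjusted p = 0.00432).

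Paqr9, a membrane receptor family gene, read 9.93, 9.37 and 9.77 in euthyroid controls, 7.35, 7.69 and 6.91 in hypothyroid controls and 8.73, 9.91 and 9.20 in hypothyroid mutants (1.96 ± 0.259 against hypothyroid controls, adjusted p = 0.00432). Tlcd2, which encodes a membrane protein, read 9.10, 9.17 and 8.91, then 5.63, 6.87 and 6.17, then 7.69, 7.35 and 8.21 in the same order (1.53 ± 0.256, adjusted p = 0.0205). Its mutants stayed below the euthyroid controls (-1.31, adjusted p = 0.0125). Rarres1, a retinoic acid responsive gene, rose by 1.99 ± 0.315 (adjusted p = 0.0128), from 4.95, 6.29 and 5.60 to 7.22, 7.47 and 8.14. The calls of Sult2a8, Gpd2 and Paqr9 were kept in all 12 omissions, whereas Tlcd2 was lost without control hypothyroid replicate 17 or 20 or mutant hypothyroid replicate 5 or 7 (adjusted p up to 0.0999) and Rarres1 without control replicate 17 or 20 or mutant replicate 7 (up to 0.0798). None of the 5 was called with array SD as a covariate, where adjusted p ran from 0.0645 for Sult2a8 (3.08) to 0.29 for Rarres1 (1.47).

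Other genes of the hormone-induced list were not called between genotypes. Dio1, the liver deiodinase and among the most hormone-dependent genes known, read 3.21, 3.25 and 3.24 in hypothyroid controls and 3.20, 3.72 and 2.83 in hypothyroid mutants. All 6 values were far below the euthyroid controls (8.14, 8.91 and 8.67), and the difference between genotypes was 0.02 ± 0.21 (adjusted p = 0.984). Dio1 was also below the array median on all 6 arrays, and at so low a signal a difference could go unseen. Cyp7a1, the rate-limiting enzyme of bile acid synthesis, read 5.40, 6.74 and 6.37 in hypothyroid controls and 7.87, 6.78 and 8.79 in hypothyroid mutants. The groups were separated by a narrow gap and the difference of 1.64 ± 0.447 was not called (adjusted p = 0.216). Of the remaining fixed genes, Klf9 differed by -0.62 (adjusted p = 0.31), Bcl3 by 0.41 (0.513) and Pck1, the gluconeogenic carboxykinase, by -0.88 (0.238). Between hypothyroid and euthyroid controls limma called Bcl3 lower (-1.08, adjusted p = 0.0205). It did not call Klf9 (-0.0013, adjusted p = 0.999) or Pck1 (-0.11, adjusted p = 0.886) there.

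Of 15 measured genes of the hormone-induced list, 4 rose (Thrsp, Pdk4, Me1 and Gpd2), 0 fell, and the median difference was 0.15. The list thus divided, with 9 of its genes above 0 and 6 below. Of the 4, limma called only Gpd2 lower in hypothyroid than in euthyroid controls (-1.62, adjusted p = 0.000755). Thrsp differed between those controls by -0.73 (adjusted p = 0.317), Me1 by 0.12 (0.864) and Pdk4 by 0.07 (0.956). Over the single-array omissions the list held 3 or 4 calls, while the fit with array SD as a covariate left 0. The receptor genes themselves were not called (Thra -0.27, adjusted p = 0.507; Thrb 0.07, adjusted p = 0.915). None of 14 genes of receptors, transport and deiodination was called in limma, nor any of 15 corepressor complex genes (Hdac3 -0.17, Tbl1xr1 0.25) or 15 coactivator genes.

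**Figure D3:**
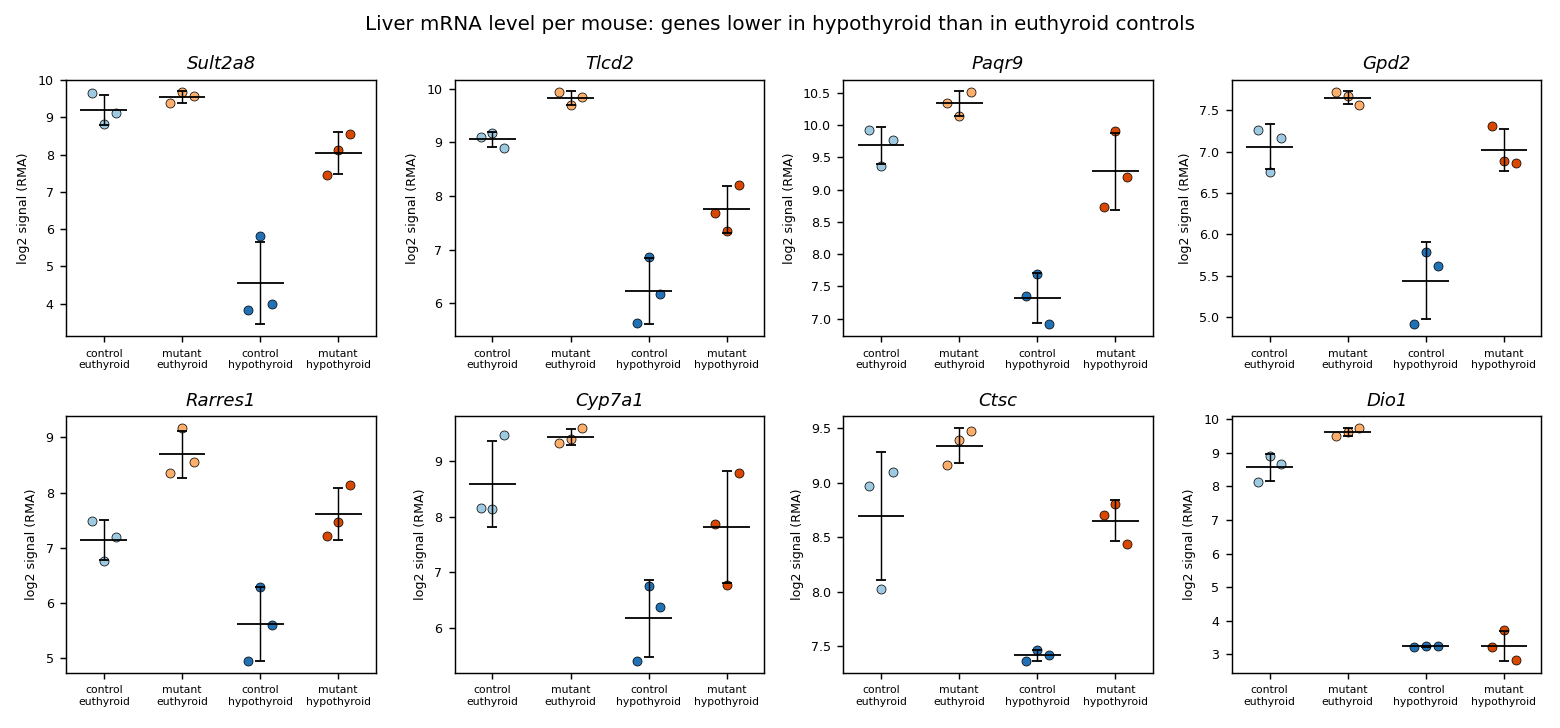
RMA log2 signal (y axis) of 8 genes that were lower in hypothyroid than in euthyroid controls, in each of the 12 mice grouped by genotype and thyroid state (x axis); points are mice, the line is the mean of 3 and the bar its SD. The hypothyroid mutants lie above the hypothyroid controls in 7 of the 8 panels. For Dio1 both groups lie at a like low level, below the array median on all 6 hypothyroid arrays.

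Genes of pyruvate and fatty acid use were also among the rises. Pdk4, the kinase that switches off pyruvate dehydrogenase, read 4.89, 5.56 and 5.21 in controls and 6.62, 7.46 and 7.01 in mutants. The groups lay over 1 log2 unit apart, and the call (1.81 ± 0.353, adjusted p = 0.0493) was at the edge of the threshold and lost in 10 of 12 omissions (adjusted p up to 0.239). Pdp2, the phosphatase that opposes it, rose from 4.10, 4.91 and 4.45 to 5.44, 5.59 and 5.38 (0.99 ± 0.166, adjusted p = 0.0205), and Dlat, a subunit of the same complex, rose by 0.89 ± 0.17 (adjusted p = 0.043). Pygl, liver glycogen phosphorylase, rose by 0.75 ± 0.14 (adjusted p = 0.0397). These made 3 of 18 genes of gluconeogenesis and glycogen called (Pdk4, Pdp2 and Pygl), with a list median of -0.05 and 0 to 3 calls over the omissions; Pdp2 was lost in 5 omissions (adjusted p up to 0.127), Dlat in 8 (up to 0.192) and Pygl in 10 (up to 0.176).

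Ehhadh, an enzyme of peroxisomal beta-oxidation, read 9.95, 10.54 and 10.09 in controls and 11.45, 11.66 and 11.61 in mutants. It rose by 1.38 ± 0.213 (adjusted p = 0.011) and, with Pdk4, was 1 of 2 called among 31 PPARA targets and fatty acid oxidation genes, whose median was 0.03. Its call was lost without control hypothyroid replicate 17 or 20 or mutant hypothyroid replicate 6 or 7 (adjusted p up to 0.0897). Fatty acid binding protein Fabp5 read 6.21, 7.47 and 5.70 in controls and 8.29, 8.33 and 9.69 in mutants, a difference of 2.31 ± 0.479 that was not called (adjusted p = 0.0666).

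Enzymes of sterol, bile acid and drug metabolism rose in a few cases each. Ces2a, a carboxylesterase that hydrolyses lipid and drug esters, had the lowest adjusted p together with Scd2: it read 8.88, 9.19 and 8.86 in controls and 10.80, 10.76 and 10.79 in mutants. Its mutants agreed within 0.05 log2 units of each other, and the rise was 1.81 ± 0.14 (3.5-fold, adjusted p = 2.49e-05), kept under every single-array omission and with array SD as a covariate (1.76, adjusted p = 0.00177). It was the only called gene of 13 carboxylesterases (median 0.12), a family of close copies. Cyp3a11, the main hepatic P450 of drug metabolism in mice, read 10.87, 11.28 and 10.61 in controls and 12.44, 12.35 and 12.15 in mutants (1.39 ± 0.191, adjusted p = 0.00521), and its neighbour in the family Cyp3a25 rose by 0.89 ± 0.13 (adjusted p = 0.00676). They were the only 2 called of 27 P450 genes of xenobiotic metabolism (median 0.05), and near-identical Cyp3a copies may share their probes. They were not the largest differences of the list, which reached 2.555 in a gene not called, with 15 genes above 0 and 12 below. A cluster of Cyp3a44 differed by 1.57 ± 0.308 and just missed the threshold (limma adjusted p = 0.0512).

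In the bile acid list, 2 of 27 genes rose. Cyp27a1, sterol 27-hydroxylase of the alternative pathway, read 10.005, 9.89 and 9.69 in controls and 10.47, 10.94 and 10.93 in mutants (0.92 ± 0.156, adjusted p = 0.0207). Cyp2c70, which makes the muricholic acids of mice, rose by 0.73 ± 0.14 (adjusted p = 0.047). The median of the list was 0.20. Single-array omissions left 0 to 3 calls in it, Cyp27a1 being lost in 5 of 12 (adjusted p up to 0.135) and Cyp2c70 in 10 (up to 0.188). Sult2a8 was the only call among 13 sulfotransferase genes, of which 11 lay above 0 with a median of 0.47.

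The remaining rises had no common list, and Csrp3 and Sytl5 were picked from them after their values were seen. Csrp3, a muscle LIM protein gene, read 6.04, 5.99 and 5.58 in controls and 7.06, 7.38 and 7.19 in mutants (1.34 ± 0.148, adjusted p = 0.000895). Sytl5, a synaptotagmin-like gene of vesicle traffic, rose in both of its clusters, by 1.34 ± 0.134 (adjusted p = 0.000298) and 1.10 ± 0.14 (adjusted p = 0.00375). Neither gene overlapped between groups, and both kept their calls in all 12 omissions. The dehydrogenase Dhrs9 (1.52, adjusted p = 0.0397), the Golgi kinase family gene Gask1a (1.54, adjusted p = 0.0207) and grancalcin, Gca (1.43, adjusted p = 0.00898), completed the 15 largest rises. Dhrs9 was lost in 8 of 12 omissions (adjusted p up to 0.197), Gask1a without control hypothyroid replicate 17 or 20 or mutant hypothyroid replicate 7 (up to 0.126), and Gca without control replicate 17 or mutant replicate 7 (up to 0.0753).

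Several smaller rises, chosen here after their values were seen, are of genes also active in immune cells: Bst2, an interferon-induced antiviral protein (1.11, adjusted p = 0.00555), cathepsin C, Ctsc (1.23, adjusted p = 0.0292), the guanylate-binding protein Gbp3 (0.94, adjusted p = 0.036) and Tnfaip2 (0.87, adjusted p = 0.00832). Ctsc was tight within groups, with 7.36, 7.46 and 7.42 in controls and 8.70, 8.80 and 8.44 in mutants. Beside them, 12 of 13 Kupffer cell and macrophage markers lay above 0 with a median of 0.41, none of the 13 was called in limma, and none was below the array median on all 6 arrays. All hypothyroid mutants were above all controls in 3 of the 13 (12.4% of all clusters). In euthyroid mice all 13 lay above 0 with a median of 0.63, and all mutants were above in 8 (5.05% of all clusters). The lean was thus not particular to the hypothyroid mice. The mean over these markers was 5.399 to 5.556 on the hypothyroid control arrays and 5.454 to 6.314 on the mutant arrays, so the groups overlapped. Ctss differed by 0.86 ± 0.247 (adjusted p = 0.24) and C1qb by 0.63 ± 0.317 (adjusted p = 0.507). The part of these cells in the 4 rises was not tested; with array SD as a covariate the marker median was 0.08. Bst2 kept its call in all 12 omissions, Tnfaip2 was lost without mutant hypothyroid replicate 6 (adjusted p = 0.0604), Ctsc in 7 omissions (up to 0.15) and Gbp3 in 8 (up to 0.181).

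Clock genes and some acute phase and stress genes had large differences that were not called. Among 18 clock genes the median was -0.58, 14 lay below 0 and none was called in limma. Dbp, a clock output factor, read 8.33, 8.41 and 7.23 in controls and 6.05, 5.60 and 6.83 in mutants (-1.83 ± 0.581, adjusted p = 0.287), and Per1 differed by -1.25 ± 0.33 (adjusted p = 0.199). The euthyroid controls ranged from 4.88 to 8.07 for Dbp, a range wider than the difference between the hypothyroid group means. Times of tissue collection were not stated in the labels. Metallothionein Mt2 of the acute phase list differed by -2.22 ± 0.863 (adjusted p = 0.395), with mutants from 7.38 to 10.27, and none of 22 acute phase genes was called in limma. Of 17 stress response genes 9 lay above 0 and 8 below, the median was 0.12 and limma called none. The most changed of these were Hsph1 (1.32 ± 0.334, adjusted p = 0.173) and Gadd45b (0.97 ± 0.255, adjusted p = 0.19).

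**Figure D4:**
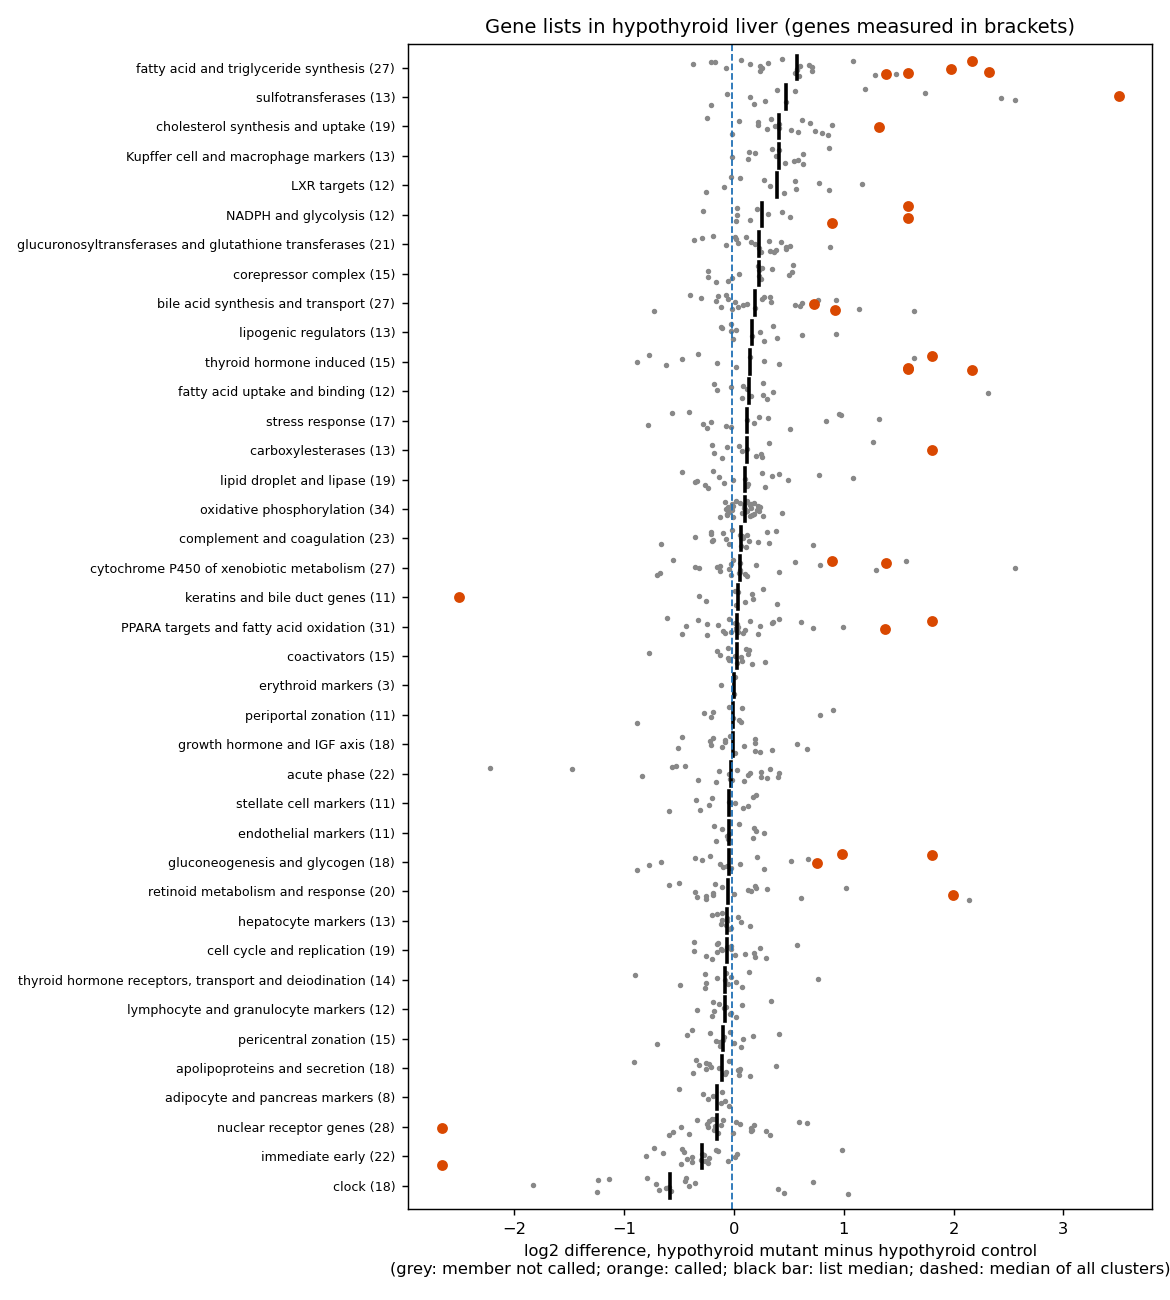
Log2 difference between hypothyroid mutants and hypothyroid controls (x axis) for the measured members of 39 gene lists (rows, sorted by median); grey points were not called, orange points were called, black bars are list medians and the dashed line is the median of all clusters, -0.02. Fatty acid and triglyceride synthesis has the highest median (0.58) and the clock list the lowest (-0.58).

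The same genotypes were compared in euthyroid mice, whose group means share no array with the hypothyroid ones. The variance of each cluster was pooled over the arrays of both states, however. Clusters called in hypothyroid mice were thus chosen in part for low spread within the euthyroid groups. The euthyroid calls and group separations given next are therefore not independent of that choice, and the shares of all clusters beside them are not matched for spread. There limma called 28 clusters (0.129%), and 13 of the 57 hypothyroid calls were among them, all higher in mutants. That count of 28 became 192 without control euthyroid replicate 13, 8 without control euthyroid replicate 14, 8 without mutant euthyroid replicate 2, 6 without mutant euthyroid replicate 4 and 45 after quantile normalization. Of the 57 clusters, 56 differed in the same direction in euthyroid mice, against 66.5% of all clusters, the exception being Lce1c (0.28). Of the 47 higher clusters, 42 had all euthyroid mutants above all euthyroid controls, which held for 5.05% of all clusters, and of the 10 lower ones 5 had all mutants below (5.35% of all). The median difference of the higher clusters was 1.23 in hypothyroid and 0.77 in euthyroid mice, and that of the lower clusters was -0.90 and -0.30. Since the clusters were chosen on the hypothyroid difference, a smaller difference in the other mice is built into that choice, and 54 of the 57 were larger in hypothyroid mice.

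Among lipid genes the measured difference was of like size in both states for some and not for others, but limma called no gap between states. Elovl6 differed by 1.98 in hypothyroid and 2.0 in euthyroid mice, Thrsp by 2.16 and 2.07, the first Me1 cluster by 1.73 and 1.68, Fasn by 1.38 and 1.22 and Ehhadh by 1.38 and 1.48. Scd2 differed by 2.33 and 1.54 (difference of effects 0.79 ± 0.259, limma adjusted p = 1.00). Some lipid genes not called in hypothyroid mice had the larger difference in euthyroid mice. The lipase gene Pnpla3 differed by 1.08 and 2.61 and was called in euthyroid mice (limma adjusted p = 0.000637). The lipoprotein lipase gene Lpl (0.78 and 1.93) and Pltp (1.17 and 1.89) were not called there either (limma adjusted p = 0.081 and 0.0926). Of the 57 clusters the gap between states was widest for these 6: Sult2a8 differed by 3.50 and 0.35, Nr4a1 by -2.66 and -0.23, Krt23 by -2.51 and -0.42, Lce1c by -1.13 and 0.28, Paqr9 by 1.96 and 0.65, and Cyp3a11 by 1.39 and 0.08. The test of the difference between the 2 states called 0 clusters (0%), with 600 at an unadjusted p under 0.05, and its lowest adjusted p was 0.287, for Krt23 (-2.09 ± 0.328). For Sult2a8 the difference of effects was 3.16 (adjusted p = 0.705), and for Nr4a1 -2.43 (adjusted p = 1.00). No mutant effect is thus shown to be particular to the hypothyroid state. Leaving out single arrays gave 1 interaction call each in 3 cases: Krt23 without control euthyroid replicate 13 (-2.39, adjusted p = 0.00415), Sult2a8 without control hypothyroid replicate 18 (3.79, adjusted p = 0.00217) and Nr4a1 without control hypothyroid replicate 20 (-3.02, adjusted p = 0.00958).

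**Figure D5:**
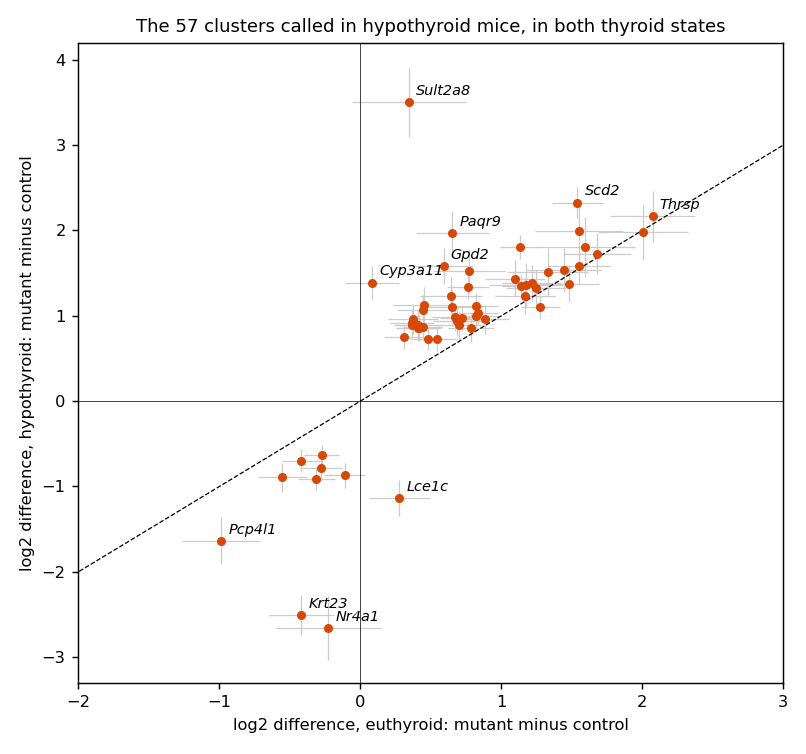
Difference between mutants and controls in hypothyroid mice (y axis, log2) against that in euthyroid mice (x axis, log2) for the 57 clusters called in hypothyroid mice; grey bars are SE and the dashed line marks equal differences. Thrsp lies near the line, Scd2 above it, and Sult2a8, Nr4a1 and Krt23 lie far from it.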

How the data were processed

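Liver RNA of 12 mice was measured on Affymetrix mouse Gene 1.0 ST arrays, from 200 ng of total RNA per the labels' protocols. The deposited values are log2 signals that the authors made with RMA, per the submitters' processing notes; its version, its options, scan dates and batches were not given in the sources used here. The table held 35557 clusters with 0 missing values, of which 21789 carried exactly 1 symbol in the platform annotation.

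A mean for each of the 4 groups was fitted to all 12 arrays with limma 3.58.1 in R 4.3.3 (residual degrees of freedom 8, prior 6.83) on the values as deposited, without a filter on level, and p-values were adjusted by Benjamini-Hochberg over the 21789 clusters. The same fit gave all contrasts. Calls needed an adjusted p under 0.05, and SE are those of the fit. Precision is limited by the number of arrays. The fit was tested on simulated data: for hypothyroid mutants against controls, with 200 of 21789 clusters changed, it recovered 38.8% of 1.5-fold, 91% of 2-fold and 100% of 4-fold changes with 10 false calls. The simulated noise was independent and of equal spread on every array. It lacked the shift of array SD with genotype seen here, so these figures hold for that simpler setting.

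The comparison, the 39 gene lists and the rule for named genes were chosen with earlier results of these data known. That rule took the 15 largest rises and 10 largest falls among called clusters without overlap, up to 4 called members of each list or else its 2 most changed, and 13 fixed genes of hormone and corepressor action; other names, which include every further called gene printed, were chosen after their values were seen. List members were matched by symbol, and the cluster with the highest mean stood for a gene. Of 683 listed genes 620 were measured. Alternatives were other normalizations, variance models, cluster sets, array weights, an array SD covariate and the omission of arrays. The remaining clusters of the table went into a separate test.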

Additional observations from a re-analysis of the deposited data

Results flagged for a closer look

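Outside the clusters with exactly 1 gene symbol, 13768 clusters had more than 1 symbol or no listed gene, and these were put through the same limma fit on their own. Of these 13768 clusters, 13 were called between hypothyroid mutants and hypothyroid controls. Among the clusters with 1 symbol 57 of 21789 were called (0.262%), a larger share. The 13 lie in data that the comparison of named genes does not use. No gene was named from them. The mutant effect did not differ between thyroid states past the threshold for any cluster with 1 symbol in the same fit of all 12 arrays.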

How the results depend on the processing

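The count of 57 clusters called in hypothyroid mice was 59 after quantile normalization, 61 after median centring, 54 among clusters above the median level, 64 with a variance trend, 58 with robust variance and 52 without both outlying arrays. It moved to 33 when every cluster of the table was tested, 421 with array weights (gene by gene), 9 with array SD as a covariate, 174 with the compared groups alone and 20 against a fold limit of 1.2. Leaving out single arrays gave 21 to 133 calls; for the difference between thyroid states 0 to 1, where array weights gave 1 (Krt23) and the other settings 0; and for euthyroid mice 6 to 192, where quantile normalization gave 45 in place of 28. The fold limit is stricter by construction; the cause of the other changes was not tested, also for the test of every cluster, in which 19 of the 33 calls were among the 57. No named gene reversed its direction as a call under any of these settings. No paired analysis was possible because the groups compared share no replicate numbers. With 3 mice a group, differences near 1.5-fold are often missed, so a gene not called is not shown to be equal.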

Other observations

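Several liver programmes had list medians near that of all clusters (-0.02) and no call in limma. Of 34 oxidative phosphorylation genes the median difference between hypothyroid mutants and controls was 0.10, and of 19 cell cycle genes it was -0.07. Among the 19, 6 were below the array median on all 6 hypothyroid arrays, where a difference could go unseen. Of the 34, 23 lay above 0 and 11 below, with all mutants above all controls in 7 and below in 0. All mutants were above in 12.4% of all clusters. The zonation lists had medians of 0.00 (11 periportal genes) and -0.10 (15 pericentral genes), with the largest pericentral difference at Cyp1a2 (-0.70, adjusted p = 0.255). Complement and coagulation genes (23) had a median of 0.06 and apolipoprotein and secretion genes (18) one of -0.11. Of the latter 18, 12 lay below 0 and 6 above, with all mutants below all controls in 6 and above in 1. All mutants were below in 10.2% of all clusters. Endothelial (11 genes, -0.05) and stellate cell markers (11 genes, -0.04) had medians near 0 as well. The adherens junction gene Cdh1 of the periportal list read 5.43, 5.18 and 5.30 in hypothyroid controls and 6.07, 6.41 and 6.13 in hypothyroid mutants, a difference of 0.90 ± 0.185 that was not called (limma adjusted p = 0.0636).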
